A study of Homo sapiens with 16 samples.

Results

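The aminoacyl-tRNA synthetases and the scaffold genes of the multisynthetase complex were described across 16 poly(A)-enriched RNA libraries of NOMO-1, an established human acute myeloid leukaemia cell line. The members were chosen by name: 40 genes were listed, and 39 of them had an entry in the deposited table of 26830 entries. VARS2 was not analysed here. The 39 members are 21 cytosolic enzymes or enzyme subunits, 15 mitochondrial enzymes and the 3 scaffold genes AIMP1, AIMP2 and EEF1E1. All 39 passed the filter on low values (at least 1 TPM in at least 3 libraries) and were among the 14951 genes tested.

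The study compared inhibition and depletion of FTO, an RNA demethylase that removes the N6-methyladenosine mark. A first set of cultures was treated for 72 h with DMSO (the solvent control, n = 4), with 100 nM of the FTO inhibitor CS1 (n = 3) or with 500 nM of the FTO inhibitor CS2 (n = 3). A second set had been infected with lentivirus carrying the control hairpin shNS (n = 3) or a hairpin against FTO, shFTO (n = 3), and selected with 1 µg/ml puromycin for 1 week. All groups are the same cell line with no further allele given in the labels, the hairpin cells are selected populations, and the labels name no second hairpin. The doses of CS1 and CS2 differ, and the hairpin cells differ from the treated cells in infection, selection and culture time. CS1 and CS2 were both compared with the same DMSO libraries, so their changes are not independent of each other.

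Aminoacyl-tRNA synthetases join each amino acid to its tRNA, the step that makes the genetic code readable by the ribosome. Most amino acids have 1 enzyme in the cytosol and another, encoded by a separate nuclear gene with the suffix 2, in mitochondria; GARS and KARS serve both compartments from a single gene. In animal cells, 8 cytosolic enzyme genes (EPRS, IARS, LARS, MARS, QARS, RARS, KARS and DARS) encode the enzymes of a large complex held together by the scaffold proteins AIMP1 (p43), AIMP2 (p38) and EEF1E1 (p18). Many cytosolic synthetase genes are targets of ATF4, the transcription factor that is translated when amino acids are limiting or the endoplasmic reticulum is stressed, and ATF4 binds the C/EBP-ATF response element.

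That element was looked for in the promoters, since the members that rose after the inhibitors and those that fell could be set beside it. RefSeq promoters (build GRCh38.p14, 250 bases before to 50 bases after the first listed start) were found for 33 of the 39 members; AARS2, DARS, LARS, TARSL2, VARS and YARS had no entry. The core of the element was searched on both strands as TGATGNAA, and the second motif searched was the E-box CACGTG. The C/EBP-ATF core was present in 7 of 33 members (21.2%), against 3.673% of all 27305 promoters of the same length. Of these 7, 6 are among the 16 cytosolic enzymes with a promoter (37.5%) and 1 among the 14 mitochondrial ones. The 7 stretches are printed 5′ to 3′ on the strand of the gene, with the match in capitals.
AARS: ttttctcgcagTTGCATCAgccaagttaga
CARS: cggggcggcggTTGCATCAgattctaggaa
IARS: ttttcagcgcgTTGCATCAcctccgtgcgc
MARS: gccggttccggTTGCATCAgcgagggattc
NARS: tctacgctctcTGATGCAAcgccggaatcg
TARS: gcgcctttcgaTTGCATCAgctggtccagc
YARS2: atccacactgcTGATGGAAaaattaagttt
The AARS stretch is at chr16:70289675-70289704 (minus strand) and its match begins 187 bases upstream of the start. The CARS stretch is at chr11:3057407-3057436 (minus strand) with the match across the start itself, the IARS stretch at chr9:92293692-92293721 (minus strand) with the match 13 bases upstream, and the MARS stretch at chr12:57488053-57488082 (plus strand) with the match beginning 4 bases upstream and running across the start. In NARS (chr18:57621804-57621833, minus strand) and TARS (chr5:33440956-33440985, plus strand) the match lies 14 and 2 bases inside the transcribed sequence, that is in the first exon of the RefSeq transcript. The YARS2 stretch (chr12:32756076-32756105, minus strand) has its match 197 bases upstream of the start. In 5 of the 6 cytosolic promoters the match reads TTGCATCA on the gene strand, and in NARS it reads TGATGCAA, its reverse complement.

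The E-box, the binding sequence of MYC and related factors, was present in 4 of the 33 members (12.1%), against 7.435% of all promoters. These were CARS2, EARS2, MARS2 and IARS, the last of which holds both motifs. After the hairpin, EARS2 (-0.49), MARS2 (-0.90) and IARS (-0.15) were called lower and CARS2 (0.074) higher, while 30 of all 39 members were lower. The IARS call was lost with quantile normalization (-0.074, limma adjusted p = 0.16). On the deposited scale all 4 were called lower in CS2 (CARS2 -0.17, EARS2 -0.57, IARS -0.66, MARS2 -0.59), as were 25 of all 39 members. In CS1, CARS2 was called higher (0.20), EARS2 lower (-0.39), and IARS and MARS2 were not called. A link between the E-box and these changes was not tested. The IARS stretch is printed because it holds both motifs, and the MARS2 stretch was picked after its fall was seen.
IARS: tggttcgttttcCACGTGgaggcgcaaaac
MARS2: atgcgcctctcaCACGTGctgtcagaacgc
The IARS E-box stretch is at chr9:92293866-92293895 (minus strand), 186 bases upstream of the start, and the MARS2 stretch is at chr2:197705346-197705375 (plus strand), 11 bases upstream. A match describes the letters in this window and says nothing of binding.

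The levels of the libraries were in TPM (a length-corrected share of the transcripts in a library), so levels can be compared between genes but the number of reads behind them is not known. The columns summed to 1000000 within rounding, 18675 to 19358 entries were above 0, 0 pairs of libraries held identical values, and within-group correlations of log2(TPM + 1) lay between 0.988 and 0.993. FTO measured 31.3, 30.8 and 32.8 TPM in shNS and 8.12, 7.49 and 8.35 TPM in shFTO, a log2 difference of -1.86 (SE 0.06, adjusted p = 7.38e-12), and its differences of 0.10 in CS1 (adjusted p = 0.141) and 0.11 in CS2 (adjusted p = 0.0936) did not pass the limma test. Markers of the labelled myeloid cell type were found, though not all of them. The sum of 11 myeloid markers was 737 to 755 TPM in DMSO, 1136 to 1185 in CS1, 1246 to 1291 in CS2, 917 to 942 in shNS and 3149 to 3728 in shFTO, while MPO and CD14 did not reach the filter. The shFTO sum was led by LYZ, with a mean of 2226 TPM against 163 in shNS. Of the 9 markers tested, 8 rose and 1 fell in CS1 and in CS2, and 7 rose and 2 fell in shFTO. The mean of CEBPA was 303 TPM in DMSO, 254 in CS1, 186 in CS2, 253 in shNS and 218 in shFTO. SPI1 fell in shFTO, from a mean of 129 to 118 TPM. The 6 lymphoid markers summed to 6.57 to 14 TPM over all libraries, with CD3E at 0 everywhere, and the 6 epithelial and fibroblast markers to 1.62 to 3.19 TPM. The myeloid sum therefore moved with every comparison below, and its part in the synthetase values was not tested. In bulk RNA, fewer cells of a type and less RNA per cell cannot be told apart.

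In the solvent control (DMSO) the synthetases formed a graded series. Values with ± are means with SD, n = 4 in DMSO and n = 3 in each other group. GARS, which charges glycine in both compartments, was the most abundant at 371 ± 5.61 TPM, followed by the bifunctional glutamate and proline enzyme EPRS at 277 ± 18.5, the lysine enzyme KARS at 241 ± 8.71 and the tyrosine enzyme YARS at 234 ± 4.05. KARS and YARS overlapped between their DMSO libraries, and so did FARSA (193 ± 3.23) and DARS (191 ± 2.05), so neighbours in this order were often not separable. The 21 cytosolic members ranged from 15.1 TPM for TARSL2, a second cytosolic threonine enzyme, to 371 TPM, with a median of 142 TPM. The 15 mitochondrial enzymes ranged from 4.91 TPM for the phenylalanine enzyme FARS2 to 156 TPM for the isoleucine enzyme IARS2, with a median of 25.2 TPM. IARS2 and the cysteine enzyme CARS2 (142 ± 2.25) were the only mitochondrial enzymes at or above the cytosolic median. Among the scaffold genes AIMP2 measured 69.8 ± 3.36 TPM, AIMP1 52.5 ± 1.52 and EEF1E1 24.2 ± 2.91.

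After CS1, the synthetases split: WARS and AARS rose most, and several mitochondrial enzymes fell. Of the 39 members, 11 rose, 10 fell and 18 did not pass the test (limma on log2(TPM + 1), Benjamini-Hochberg adjusted p under 0.05 over all 14951 genes); of all genes tested, 37.5% rose and 14.3% fell, 51.8% in all. The median log2 fold change of the members was 0.0039 against 0.092 over all genes, and 26 of the 39 lay below the all-gene median. This split depends on the scaling: with median-of-ratios scaling, under which the all-gene median is -0.022, 6 members rose and 21 fell, and with quantile normalization 10 rose and 19 fell. Cytosolic enzymes gave 7 higher, 4 lower and 10 not called, mitochondrial enzymes 2 higher, 6 lower and 7 not called, and scaffold genes 2 higher and 1 not called; with median-of-ratios scaling the cytosolic enzymes gave 4 higher and 11 lower and the mitochondrial 1 higher and 10 lower. By complex, none of the 8 enzymes of the complex rose and 2 fell, and 7 of the 13 cytosolic enzymes outside it rose and 2 fell. With median-of-ratios scaling 6 of the 8 fell, and outside the complex 4 rose and 5 fell; with quantile normalization 6 of the 8 fell, and outside it 6 rose and 3 fell. None of the 8 rose under any of these scales. The contrast between these sets was not tested.

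**Figure D1:**
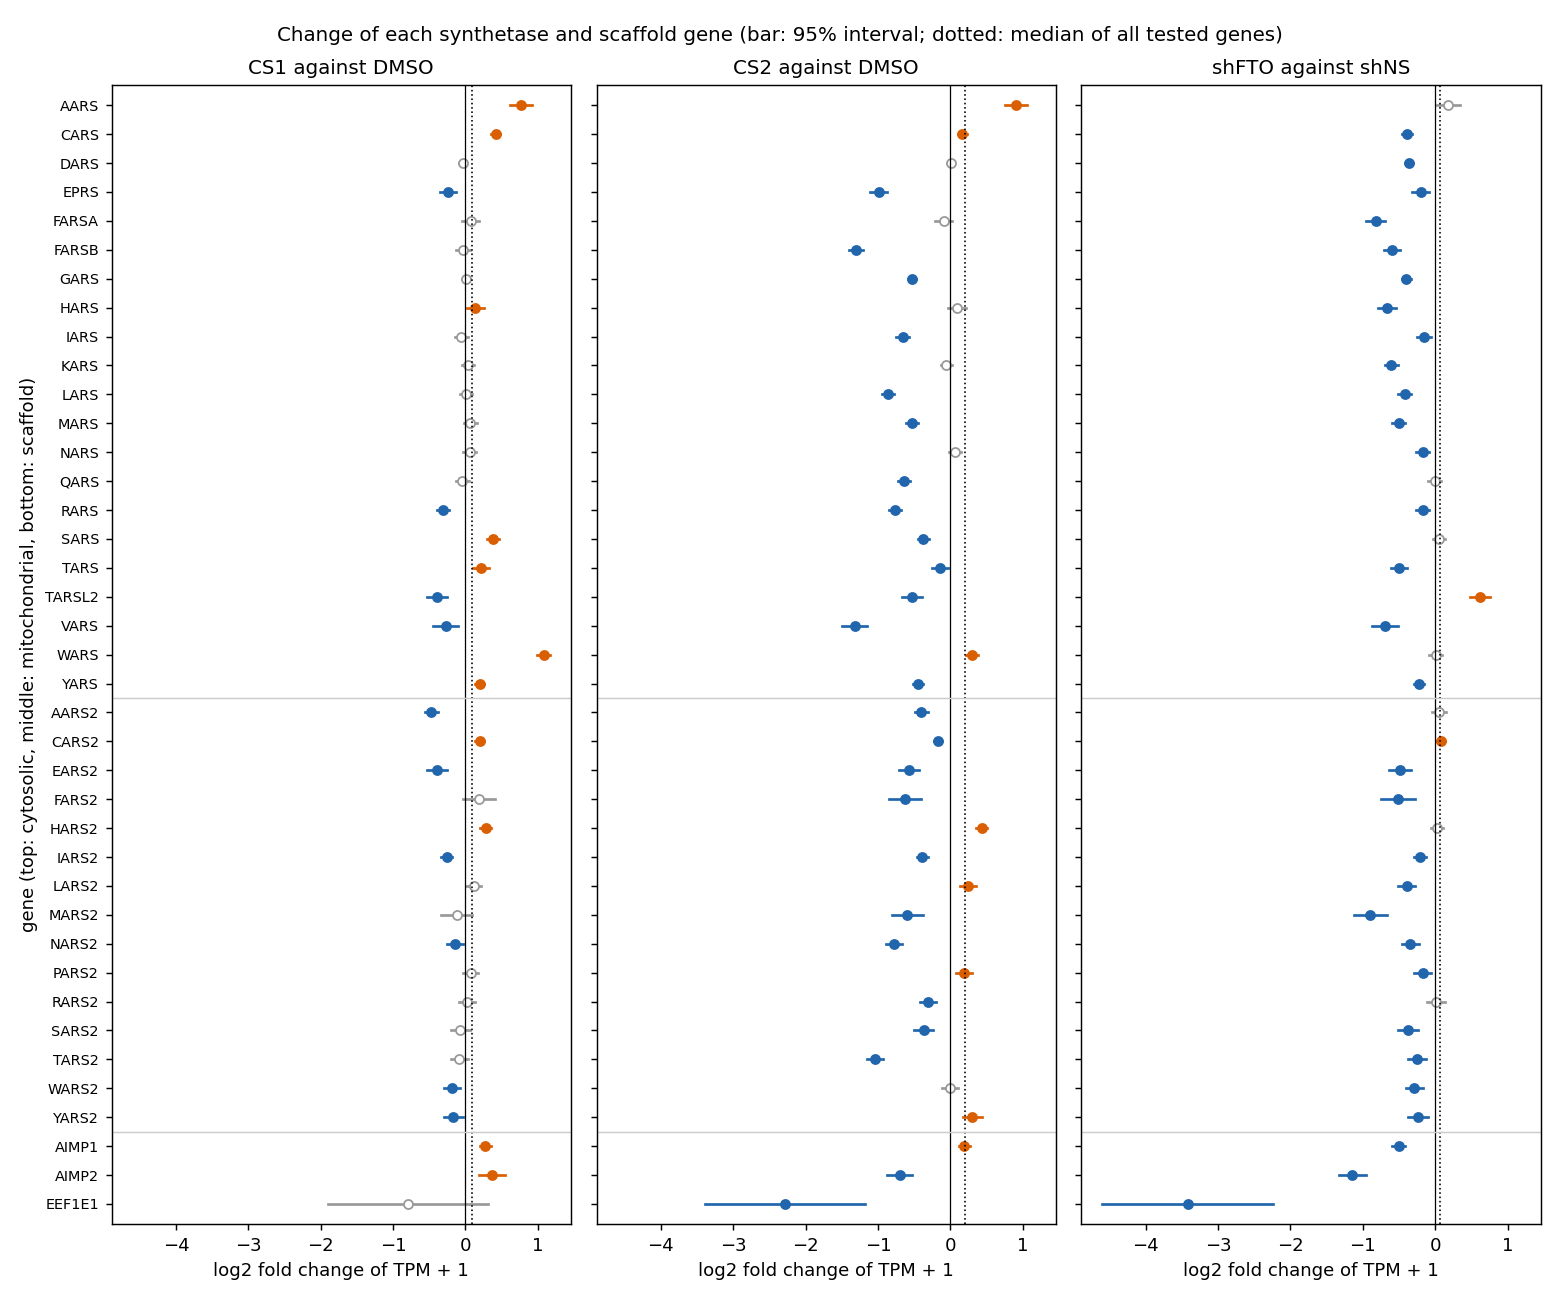
Log2 fold change of TPM + 1 (x axis) of each of the 39 members (y axis: cytosolic at the top, mitochondrial in the middle, scaffold at the bottom) for CS1 against DMSO, CS2 against DMSO and shFTO against shNS; bars are 95% intervals, orange is higher, blue is lower, open grey is not called, and the dotted line is the median of all tested genes. WARS stands out at 1.08 in CS1, 25 members are lower in CS2 and 30 in shFTO; the CS1 directions near 0 move with the scaling.

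In CS1, WARS, the cytosolic tryptophan enzyme, had the largest fold change among the enzymes. WARS (chr14:100333788-100376805, GRCh38, GENCODE 29, as for all gene positions here) measured 55, 53.9, 55.3 and 56.9 TPM in DMSO and 121, 123 and 110.3 in CS1, a log2 difference of 1.08 (SE 0.04, adjusted p = 5.59e-11). All CS1 libraries lay above every DMSO library and above every library of the 3 other groups. AARS, the alanine enzyme (chr16:70252295-70289543), measured 130.1, 134, 118 and 122 TPM in DMSO and 229, 227 and 191 in CS1, a log2 difference of 0.77 (SE 0.071, adjusted p = 3.85e-07). CARS, the cysteine enzyme (chr11:3000922-3057613), stood at 66.1, 67, 65.1 and 67.4 TPM in DMSO and 89.5, 90.0 and 87.2 in CS1, a log2 difference of 0.42 (SE 0.031, adjusted p = 3.83e-08). SARS, the serine enzyme (chr1:109213918-109238169), had 88.2, 87.7, 82.2 and 83.8 TPM in DMSO and 114, 116 and 104 in CS1, a log2 difference of 0.38 (SE 0.038, adjusted p = 8.55e-07). For AARS, CARS and SARS too, no CS1 library overlapped the DMSO libraries. Among all 14951 genes, 38.2% had CS1 libraries wholly above and 15.7% wholly below the DMSO libraries. The other cytosolic enzymes called higher were TARS (0.22), YARS (0.20) and HARS (0.14), none of which passed the test under median-of-ratios scaling. Of the 12 cytosolic enzymes that background knowledge lists as ATF4 targets, 6 rose and 1 fell, with a median of 0.13, and of the 9 others 1 rose and 3 fell, with a median of -0.036. These counts depend on the scaling too. With median-of-ratios scaling the listed targets gave 4 higher and 5 lower (median 0.0011) and the others 0 higher and 6 lower (median -0.17), and with quantile normalization 6 and 3 (median 0.042) and 0 and 6 (median -0.14).

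Among the mitochondrial enzymes, the 3 falls with the smallest adjusted p after CS1 were those of AARS2, IARS2 and EARS2. AARS2, the mitochondrial alanine enzyme (chr6:44299654-44313326), fell from 42.6, 42.7, 41.7 and 39.5 TPM in DMSO to 29.8, 30.1 and 29.4 in CS1, a log2 difference of -0.47 (SE 0.043, adjusted p = 3.56e-07). IARS2 (chr1:220094102-220148041) measured 157, 158, 149 and 158 TPM in DMSO and 127, 128 and 133 in CS1, a log2 difference of -0.26 (SE 0.037, adjusted p = 2.86e-05). EARS2, the mitochondrial glutamate enzyme (chr16:23522014-23557731), had 16.3, 16.9, 17.1 and 17.5 TPM in DMSO and 12.9, 11.8 and 13.6 in CS1, a log2 difference of -0.39 (SE 0.064, adjusted p = 0.000138). In each of these 3 genes every CS1 library was below every DMSO library. HARS2, the mitochondrial histidine enzyme (chr5:140691426-140699318), went up instead, from 24.2, 23.3, 24.1 and 25.4 TPM to 29.4, 30.8 and 28.7 TPM, a log2 difference of 0.28 (SE 0.037, adjusted p = 1.58e-05). HARS2 and HARS lie head to head on chromosome 5 and share 437 exonic bases on opposite strands, and since the strand setting of the counting is not given in the sources used here, reads of the shared stretch cannot be assigned to either with certainty. The cytosolic genes RARS and TARSL2 were also among the 5 falls with the smallest adjusted p. RARS, the arginine enzyme (chr5:168486445-168519299), stood at 101, 103, 101 and 102 TPM in DMSO and 81.4, 79.9 and 85 in CS1, a log2 difference of -0.31 (SE 0.038, adjusted p = 8.57e-06). TARSL2 (chr15:101653598-101724604) stood at 15.1, 14.9, 15.3 and 15.1 TPM in DMSO and 11.3, 11.4 and 10.9 in CS1, a log2 difference of -0.40 (SE 0.063, adjusted p = 9.57e-05).

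**Figure D2:**
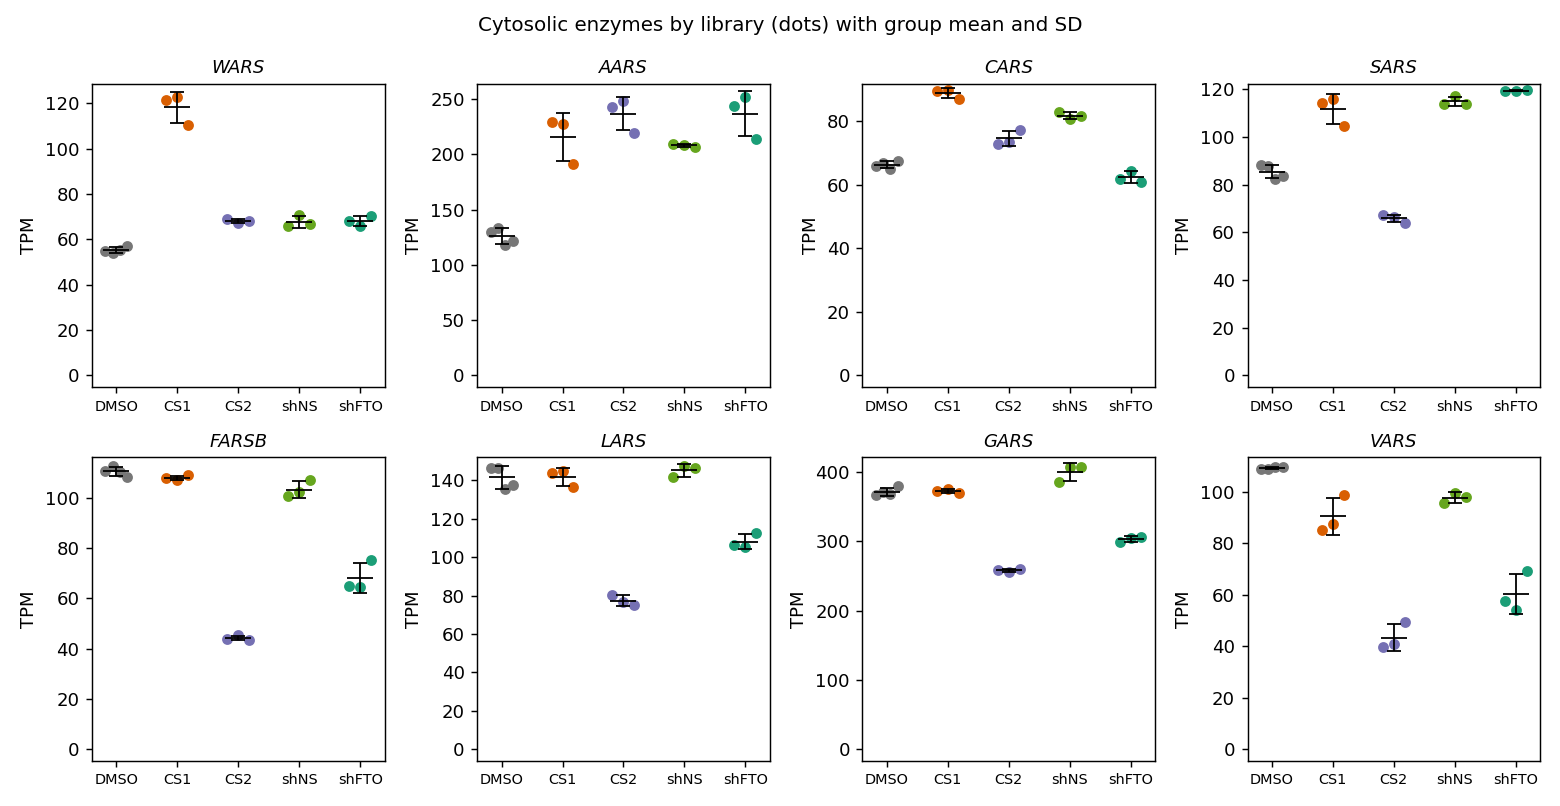
TPM (y axis, from 0) of 8 cytosolic enzymes in each library (dots) by group (x axis), with the group mean and SD. WARS is highest in CS1 at 110.3 to 123 TPM, FARSB, LARS, GARS and VARS are lowest in CS2, and AARS is higher in CS1 and CS2 than in DMSO but is also at 207 to 209 TPM in shNS.

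After CS2, most synthetases fell. Of the 39 members, 25 fell, 8 rose and 6 were not called, while of all genes tested 24.6% fell and 49.5% rose (74.1% in all). The members' median was -0.38 against 0.20 over all genes, and 34 of 39 lay below the all-gene median. With median-of-ratios scaling 2 rose and 30 fell, and with quantile normalization 2 rose and 31 fell. By compartment, 13 of 21 cytosolic and 10 of 15 mitochondrial enzymes fell, and 3 and 4 rose. Of the 8 enzymes of the complex, 6 fell and none rose, with a median of -0.65; DARS (0.0055) and KARS (-0.053) did not pass the test, and with either other scaling all 8 fell. Of the 13 cytosolic enzymes outside it, 7 fell and 3 rose.

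The 5 enzyme genes that fell with the smallest adjusted p serve phenylalanine, leucine, arginine, glycine and mitochondrial threonine. FARSB, the beta subunit of the cytosolic phenylalanine enzyme (chr2:222570536-222656337), measured 111, 113, 110.1 and 108 TPM in DMSO and 43.9, 45.3 and 43.6 in CS2, a log2 difference of -1.30 (SE 0.046, adjusted p = 2.17e-12). Its partner FARSA, the alpha subunit, measured 190.4, 192, 191 and 197 TPM in DMSO and 178, 184 and 179.6 in CS2; the groups did not overlap, but the difference of -0.093 did not pass the test (limma adjusted p = 0.153), though it did with median-of-ratios scaling (-0.33, adjusted p = 0.000766) and quantile normalization (-0.30, adjusted p = 6.86e-05). The difference between the subunits was not tested. LARS, the leucine enzyme (chr5:146113038-146182660), had 146, 147, 136 and 137 TPM in DMSO and 80.4, 76.6 and 75 in CS2, a log2 difference of -0.86 (SE 0.039, adjusted p = 3.31e-11). RARS stood at 62.1, 58.4 and 58.3 TPM in CS2, a log2 difference of -0.76 (SE 0.038, adjusted p = 9.72e-11). GARS (chr7:30594681-30634033) went from 367, 371, 368 and 379 TPM in DMSO to 259, 256 and 259 in CS2, a log2 difference of -0.52 (SE 0.026, adjusted p = 7.68e-11). Among mitochondrial enzymes the threonine enzyme TARS2 (chr1:150487364-150507609) had 34.8, 38, 34.7 and 33.3 TPM in DMSO and 17.2, 16.9 and 15.5 in CS2, a log2 difference of -1.04 (SE 0.053, adjusted p = 1.01e-10). For all 5 of these called genes the CS2 libraries lay wholly below the DMSO libraries, as did 24.2% of all genes tested, and 48.0% lay wholly above. The valine enzyme VARS had the lowest fold change of any enzyme in CS2 and was named after its values were seen: it measured 109, 109, 109.9 and 109.6 TPM in DMSO and 39.8, 41 and 49.3 in CS2, a log2 difference of -1.32 (SE 0.08, adjusted p = 8.46e-10).

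AARS and HARS2 rose against this trend. AARS measured 243, 248 and 219.6 TPM in CS2, all above the DMSO libraries, a log2 difference of 0.91 (SE 0.071, adjusted p = 1.49e-08). HARS2 measured 33.2, 33.3 and 32.8 TPM in CS2, a log2 difference of 0.43 (SE 0.037, adjusted p = 3.98e-08). WARS stood at 68.8, 67.3 and 68.2 TPM in CS2, a log2 difference of 0.30 (SE 0.04, adjusted p = 7.11e-06), and CARS at 72.9, 73.5 and 77.4 TPM, a log2 difference of 0.17 (SE 0.031, adjusted p = 0.000164); both calls depended on the scaling, since with median-of-ratios scaling WARS was at 0.064 and not called and CARS turned to -0.067. The other mitochondrial enzymes called higher were YARS2 (0.31), LARS2 (0.24) and PARS2 (0.19), and none of the 3 passed under either other scaling. AARS and HARS2 were thus the 2 members called higher under the deposited scale and under median-of-ratios scaling. The ATF4-target enzymes by background gave 3 higher and 8 lower of 12 (median -0.41), and the other cytosolic enzymes 0 higher and 5 lower of 9 (median -0.53). Read against the printed promoters, the 6 cytosolic genes with the C/EBP-ATF core went in different directions in CS2: AARS and CARS were called higher, IARS (-0.66), MARS (-0.53) and TARS (-0.14) lower, and NARS (0.061) was not called. In CS1, AARS, CARS and TARS were called higher and IARS (-0.060), MARS (0.069) and NARS (0.057) were not called. With median-of-ratios scaling, TARS was no longer called and IARS and NARS were lower in CS1, and CARS was no longer called and NARS was lower in CS2.

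**Figure D3:**
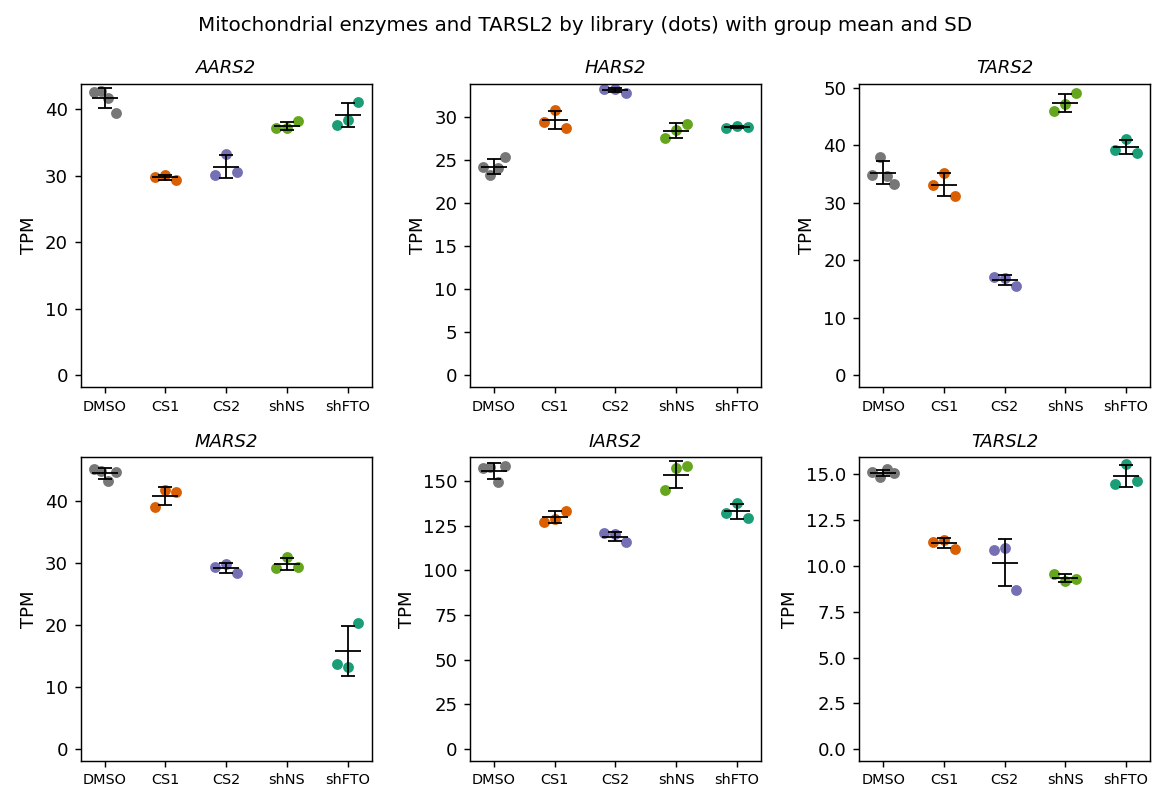
TPM (y axis, from 0) of 5 mitochondrial enzymes and the cytosolic TARSL2 in each library (dots) by group (x axis), with the group mean and SD. TARS2 is lowest in CS2 at 15.5 to 17.2 TPM, MARS2 in shFTO at 13.2 to 20.4 TPM, and TARSL2 is higher in shFTO than in shNS but lower in CS1 and CS2 than in DMSO.

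With the FTO hairpin, the synthetases were lower almost throughout. Of the 39 members, 30 fell, 2 rose and 7 were not called, against 24.5% of all genes lower and 31.9% higher (56.4% in all). The members' median was -0.35 against 0.072 over all genes, and 36 of 39 lay below the all-gene median. Median-of-ratios scaling gave 1 higher and 30 lower, and quantile normalization 4 higher and 27 lower. Cytosolic enzymes gave 16 lower and 1 higher of 21, mitochondrial enzymes 11 lower and 1 higher of 15, and all 3 scaffold genes fell. Of the 8 complex enzymes 7 fell (median -0.28), QARS being the exception at -0.0055, and with quantile normalization 5 fell. The ATF4-target enzymes by background had 9 lower and 0 higher of 12 (median -0.21), and the 9 other cytosolic enzymes 7 lower and 1 higher (median -0.60). With quantile normalization the listed targets gave 6 lower and 2 higher (median -0.12), and the others 7 lower and 1 higher (median -0.49).

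DARS, the aspartate enzyme (chr2:135906677-135986100), measured 187, 192 and 191 TPM in shNS and 146, 148 and 148 in shFTO, a log2 difference of -0.36 (SE 0.024, adjusted p = 1.58e-08). An antisense entry, DARS-AS1, shares 305 exonic bases with DARS, and the strand setting is not given, so reads of that stretch are uncertain. KARS (chr16:75627474-75648643) had 212, 217 and 224 TPM in shNS and 144, 135 and 150.3 in shFTO, a log2 difference of -0.60 (SE 0.04, adjusted p = 1.61e-08). GARS stood at 386, 408 and 408 TPM in shNS and 299, 304 and 307 in shFTO, a log2 difference of -0.40 (SE 0.027, adjusted p = 2.04e-08). FARSA (chr19:12922479-12934037) went from 159, 163 and 158 TPM to 88.5, 81.5 and 101 TPM, a log2 difference of -0.82 (SE 0.061, adjusted p = 4.06e-08), and its partner FARSB from 101, 102 and 107 TPM to 64.7, 64.3 and 75.2 TPM, a log2 difference of -0.60 (SE 0.049, adjusted p = 1.13e-07). Both subunits of the phenylalanine enzyme fell after the hairpin, and the FARSA response differed between CS2 and the hairpin by 0.73 (SE 0.083, limma adjusted p = 1.76e-06). All shFTO libraries were below all shNS libraries for these 5 genes; among all genes, 26.4% had shFTO libraries wholly below and 38.3% wholly above. MARS2, the mitochondrial methionine enzyme whose E-box is printed above, was named after its values were seen as the lowest mitochondrial fold change: it had 29.1, 30.8 and 29.3 TPM in shNS and 13.8, 13.2 and 20.4 in shFTO, a log2 difference of -0.90 (SE 0.11, adjusted p = 4.36e-06).

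TARSL2 was the clear exception. It measured 9.58, 9.18 and 9.29 TPM in shNS and 14.5, 15.6 and 14.6 in shFTO, a log2 difference of 0.62 (SE 0.068, adjusted p = 2.09e-06). Its cytosolic counterpart TARS fell at the same time, from 156, 164 and 165 TPM to 106, 113 and 125 TPM, a log2 difference of -0.50 (SE 0.053, adjusted p = 1.56e-06). TARSL2 in shFTO reached the level it had in DMSO (15.1 ± 0.172), while the shNS libraries were below the DMSO libraries. CARS2 was also called higher, with 95.6, 94.5 and 94.3 TPM in shNS and 96.6, 99.4 and 104 in shFTO, a log2 difference of 0.074 (SE 0.03, adjusted p = 0.045). That call was lost without any 1 of DMSO replicates 1, 2 and 3, CS1 replicates 1 and 2, CS2 replicates 1 and 2, the 3 shNS libraries and shFTO replicates 2 and 3 (adjusted p = 0.0508 to 0.147). With median-of-ratios scaling the value of CARS2 turned to -0.028.

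The 3 scaffold genes are taken in turn. AIMP1, the p43 scaffold (chr4:106315544-106349226), measured 51.4, 51.3, 54.5 and 52.6 TPM in DMSO, 62.9, 62 and 66.2 in CS1 and 61.3, 60.2 and 59 in CS2. It measured 42.1, 45.5 and 43.4 TPM in shNS and 31, 30.6 and 29.7 in shFTO. The CS1 libraries were above all DMSO libraries (0.28, SE 0.037, adjusted p = 1.67e-05), and the shFTO libraries below all shNS libraries (-0.51, SE 0.039, adjusted p = 6.89e-08). The CS2 difference was called higher (0.19, SE 0.037, adjusted p = 0.000197) but turned to -0.037 with median-of-ratios scaling and -0.046 with quantile normalization, neither past the test. AIMP2, the p38 scaffold that organises the complex (chr7:6009245-6023834), measured 65.4, 69.7, 70.3 and 73.6 TPM in DMSO, 87.6, 90.6 and 92.6 in CS1 and 38.2, 42.6 and 47.2 in CS2. In the hairpin cells it measured 55.5, 56.5 and 57.1 TPM in shNS and 23.2, 22.5 and 29.7 in shFTO. AIMP2 was thus higher in CS1 (0.37, SE 0.082, adjusted p = 0.00154), lower in CS2 (-0.70, SE 0.082, adjusted p = 1.5e-06) and lower in shFTO (-1.15, SE 0.087, adjusted p = 5.87e-08), with no overlap between any of these pairs of groups. With median-of-ratios scaling the CS1 difference of AIMP2 was 0.24 and did not pass (adjusted p = 0.0532). AIMP2 shares 532 exonic bases with EIF2AK1 on the opposite strand.

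EEF1E1, the p18 scaffold (chr6:8073360-8102578), was the most variable member. It measured 23.1, 21.4, 28.2 and 24.2 TPM in DMSO, 10.7, 13.2 and 17.1 in CS1, 8.11, 10.1 and 0.35 in CS2 and 11.1, 9.82 and 15.5 in shNS, and it was listed at 0, 0.77 and 0 TPM in shFTO. All treated libraries lay below their controls, and CS2 replicate 3 lay far below the other CS2 libraries. The fitted difference was -0.80 in CS1 (SE 0.52, adjusted p = 0.214), -2.28 in CS2 (SE 0.52, adjusted p = 0.000961) and -3.42 in shFTO (SE 0.55, adjusted p = 9.06e-05), all by limma. Near 0 TPM these sizes depend on the pseudocount: with 0.1 in place of 1, the shFTO difference was -5.87 and the CS2 difference -2.85. Without CS2 replicate 3 the spread was smaller, and the CS1 difference of -0.80 passed the test (adjusted p = 0.00531). EEF1E1 is an uncertain measurement, because the table also holds EEF1E1-BLOC1S5, a readthrough entry that shares 393 exonic bases with it on the same strand. That entry measured 23.1 ± 1.37 TPM in DMSO, 27.1 ± 1.73 in CS1, 34 ± 0.961 in CS2, 21.7 ± 1.31 in shNS and 24.4 ± 0.736 in shFTO. The sum of both entries, an alternative added after seeing the data, was 47.3 ± 1.63 TPM in DMSO (SD, n = 4), 40.7 ± 1.48 in CS1, 40.2 ± 5.77 in CS2, 33.8 ± 2.99 in shNS and 24.6 ± 0.393 in shFTO (SD, n = 3 each). For the sum the difference was -0.21 in CS1 (adjusted p = 0.0327), -0.24 in CS2 (adjusted p = 0.0115) and -0.44 in shFTO (adjusted p = 0.000348), so the sum fell in all 3 comparisons by much less than the gene entry alone.

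**Figure D4:**
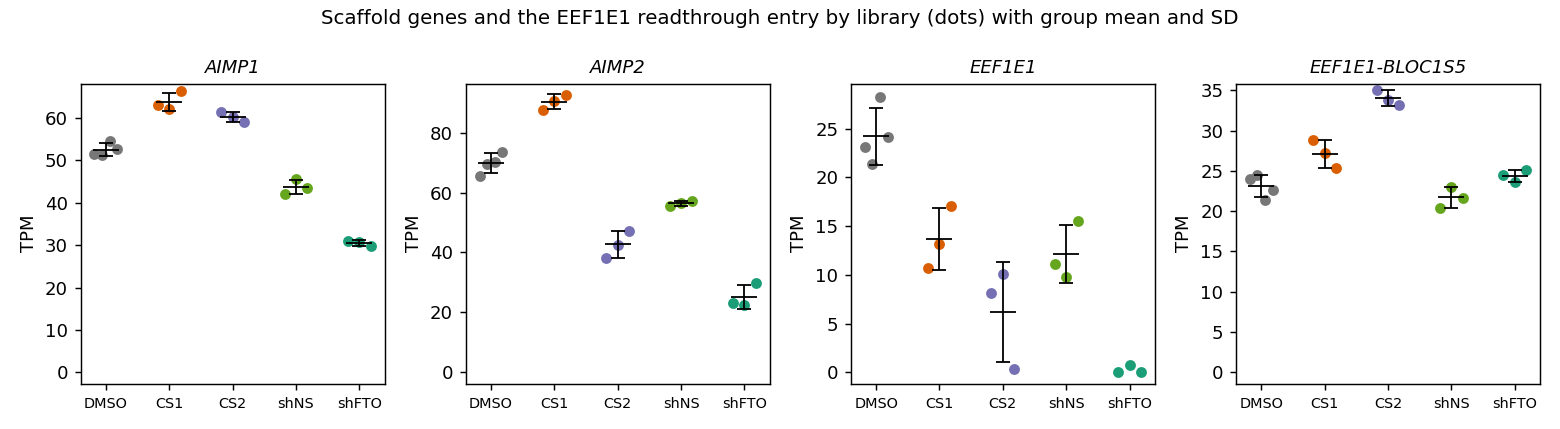
TPM (y axis, from 0) of the 3 scaffold genes and the readthrough entry EEF1E1-BLOC1S5 in each library (dots) by group (x axis), with the group mean and SD except for EEF1E1 in shFTO, where 2 libraries are listed at 0. AIMP2 is higher in CS1 and lower in CS2 and shFTO than in its controls, and the readthrough entry holds 24.4 TPM in shFTO where EEF1E1 is at or near 0.

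Adding up the members shows how much synthetase RNA each group held as a share of the library. The 21 cytosolic members summed to 3241 ± 44.9 TPM in DMSO (SD, n = 4), 3436 ± 49.0 in CS1, 2591 ± 46.7 in CS2, 3327 ± 75.3 in shNS and 2724 ± 24.3 in shFTO (SD, n = 3 each). The 15 mitochondrial enzymes summed to 622 ± 8.23 TPM in DMSO, 596 ± 6.75 in CS1, 513 ± 7.63 in CS2, 565 ± 13.7 in shNS and 498 ± 12 in shFTO. No library of CS1, CS2 or shFTO overlapped its controls in either sum. The cytosolic sum was 5.21 times the mitochondrial sum in DMSO, 5.77 times in CS1, 5.05 times in CS2, 5.89 times in shNS and 5.47 times in shFTO. The sums are led by the abundant genes and were made on the deposited scale only, and no test was made on them.

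**Figure D5:**
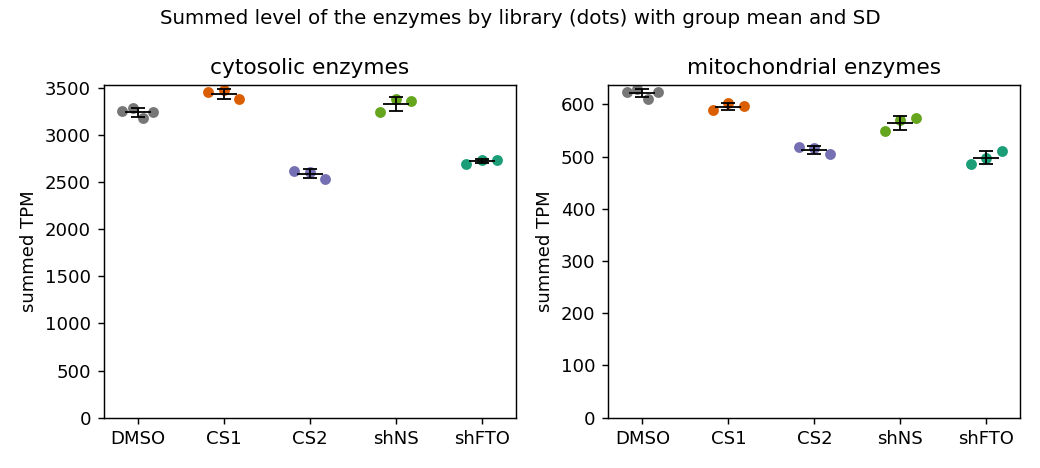
Summed TPM (y axis, from 0) of the 21 cytosolic members and of the 15 mitochondrial enzymes in each library (dots) by group (x axis), with the group mean and SD. On the deposited scale the cytosolic sum is 3436 TPM in CS1 against 3241 in DMSO, and 2591 in CS2 and 2724 in shFTO. The sums were not made under another scaling. The cytosolic calls in CS1 moved with it, from 7 higher and 4 lower as deposited to 4 higher and 11 lower with median-of-ratios scaling.

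Set directly against each other at their different doses, CS1 had higher synthetase levels than CS2. Of the 39 members, 26 were higher in CS1, 4 were lower and 9 were not called, against 26.2% of all genes higher and 40.4% lower (66.6% in all). The median was 0.36, and -0.11 over all genes; median-of-ratios scaling gave 30 higher and 1 lower, and quantile normalization 32 higher and 1 lower. Of the cytosolic enzymes 15 of 21 were higher and 0 lower. The 3 members with the smallest adjusted p were FARSB (1.27, SE 0.049, adjusted p = 2.11e-11), LARS (0.87, SE 0.042, adjusted p = 2.11e-10) and YARS (0.65, SE 0.032, adjusted p = 2.7e-10). FARSB measured 108, 107 and 109 TPM in CS1 and 43.9, 45.3 and 43.6 in CS2. LARS had 144, 145 and 136 TPM in CS1 and 80.4, 76.6 and 75 in CS2. YARS (chr1:32775237-32818153) had 229, 232, 237 and 237 TPM in DMSO, 266, 275 and 264 in CS1 and 172, 173 and 168 in CS2, so that CS1 was above and CS2 below the DMSO libraries. No CS1 library of these 3 genes overlapped a CS2 library; among all genes, 27.1% were wholly higher in CS1 and 40.6% wholly lower. Of the scaffold genes AIMP2 was higher in CS1 (1.07, SE 0.087, adjusted p = 5.73e-08) and AIMP1 did not pass (0.081, SE 0.039, adjusted p = 0.0816). EEF1E1 was called higher in CS1 (1.48, SE 0.55, adjusted p = 0.0279), but not without CS2 replicate 3 (0.52, adjusted p = 0.082), CS1 replicate 2 (1.5, adjusted p = 0.0542) or CS1 replicate 3 (1.32, adjusted p = 0.0862), and not for the sum with the readthrough entry (0.028, adjusted p = 0.783).

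Whether each inhibitor's change differed from the hairpin's was tested as a difference of differences. For CS1, 27 of 39 members had a higher response to CS1 than to the hairpin, 2 a lower one and 10 were not called, against 31.0% of all genes higher and 18.3% lower (49.4% in all). With median-of-ratios scaling 24 were higher and 2 lower, and with quantile normalization 20 and 5. WARS had the largest such difference among those named by adjusted p (1.08, SE 0.059, adjusted p = 4.16e-09), with 65.8, 70.8 and 66.8 TPM in shNS and 67.9, 66 and 70.1 in shFTO, where the groups overlapped. CARS differed by 0.80 (SE 0.045, adjusted p = 5.63e-09), with 83, 80.9 and 81.5 TPM in shNS and 61.9, 64.5 and 60.8 in shFTO: it was above its controls in every CS1 library and below them in every shFTO library. AIMP1 differed by 0.78 (SE 0.054, adjusted p = 3.88e-08), AIMP2 by 1.51 (SE 0.12, adjusted p = 1.46e-07) and EEF1E1 by 2.62 (SE 0.76, adjusted p = 0.00994), the last not for its sum with the readthrough entry (0.23, adjusted p = 0.109). TARSL2 (-1.01) and AARS2 (-0.53) were the 2 members with a lower response to CS1. For CS2, 16 members were higher, 17 lower and 6 not called (13 and 18 called with median-of-ratios scaling, 11 and 18 with quantile normalization), against 39.8% of all genes higher and 23.7% lower (63.4% in all). AIMP1 (0.70, SE 0.054, adjusted p = 2.58e-08), TARSL2 (-1.15, SE 0.092, adjusted p = 4.23e-08) and CARS (0.55, SE 0.045, adjusted p = 4.76e-08) had the smallest adjusted p. AIMP2 differed by 0.45 (SE 0.12, adjusted p = 0.00429), a call lost under both other scalings (0.32 and 0.30), and EEF1E1 by 1.13 (SE 0.76, adjusted p = 0.208), which did pass without CS2 replicate 3 (2.1, adjusted p = 6.08e-05). Of the 8 complex enzymes, 5 were lower and 2 higher with CS2 than with the hairpin. These tests take the culture, infection and selection of the hairpin cells to act alike in shNS and shFTO.

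The enzymes of 1 amino acid in the cytosol and in mitochondria could be paired for 12 amino acids. After CS1, 2 pairs rose together (cysteine, CARS and CARS2; histidine, HARS and HARS2), none fell together, and 3 were called in opposite directions (alanine, tryptophan and tyrosine), the cytosolic enzyme being the higher one in each. After CS2, 5 pairs fell together (isoleucine, methionine, arginine, serine and threonine) and 4 were opposite: AARS and CARS were higher while AARS2 and CARS2 were lower, and LARS and YARS were lower while LARS2 and YARS2 were higher. With the hairpin, 6 pairs fell together (isoleucine, leucine, methionine, asparagine, threonine and tyrosine) and cysteine was the only opposite pair, through the CARS2 call that was lost in the alternatives named above. These pair counts are those of the deposited scale. With median-of-ratios scaling no pair rose together in CS1, 3 fell together (isoleucine, asparagine and arginine) and 3 were opposite (alanine, serine and tryptophan). In CS2, 6 fell together, asparagine being added, and alanine was the only opposite pair. With the hairpin the same 6 pairs fell together and none was opposite. With quantile normalization, 1 pair rose together in CS1, 2 fell together and 5 were opposite; 6 fell together and 2 were opposite in CS2, and 4 and 2 in shFTO. The alanine pair was opposite in both inhibitors, and the tryptophan pair in CS1, under all 3 scales. YARS2, which fell in CS1 (-0.17) and rose in CS2 (0.31), measured 19.6, 19.6, 19.9 and 20.8 TPM in DMSO, 16.7, 19.2 and 17.1 in CS1 and 25.5, 24.8 and 24.5 in CS2. WARS2 measured 20.2, 19.8, 19.6 and 18.1 TPM in DMSO and 17.2, 17 and 16.8 in CS1, a log2 difference of -0.18 (SE 0.052, adjusted p = 0.00887), while WARS rose. In CS2 WARS2 had a difference of -0.0023 and was not called.

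The 2 control groups, which differ in infection and selection, held 4009 ± 48.6 TPM (DMSO, SD, n = 4) and 4004 ± 91.2 TPM (shNS, SD, n = 3) over all 39 members. Single genes stood at different levels in them, and the 5 given here were chosen after their values were seen. AARS measured 209, 209 and 207 TPM in shNS, all above the 118 to 134 TPM of DMSO and close to the CS1 and CS2 libraries; in shFTO it measured 244, 252 and 214 TPM, a difference of 0.18 that did not pass the test (adjusted p = 0.0544) but did with quantile normalization (0.25, adjusted p = 0.0165) and with a replicate block, a fit that takes equal replicate numbers as pairs (0.18, adjusted p = 0.00385). SARS measured 114, 117 and 114 TPM in shNS, at the level of CS1. QARS, the glutamine enzyme, was at 223 ± 3.91 TPM in shNS and 171 ± 1.82 in DMSO. In the other direction, CARS2 was at 94.8 ± 0.689 TPM in shNS and 142 ± 2.25 in DMSO, and RARS at 71.4 ± 2.85 and 102 ± 1.27. No test between the control groups was planned, and these values are given as levels.

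Other genes of tRNA charging and of the amino acid response, from lists chosen with the members, give the surroundings of these changes. Of 16 accessory genes of tRNA charging, 2 rose and 5 fell in CS1, 4 rose and 9 fell in CS2, and 2 rose and 10 fell in shFTO. With median-of-ratios scaling these were 1 and 8, 1 and 13, and 2 and 12. On the deposited scale, 37.5% of all genes tested rose and 14.3% fell in CS1. The shares were 49.5% and 24.6% in CS2, and 31.9% and 24.5% in shFTO. DTD1, a D-aminoacyl-tRNA deacylase, went from 101 ± 4.95 TPM in DMSO to 32 ± 1.25 in CS2 (-1.63, SE 0.054, adjusted p = 1.38e-12), and AARSD1, an editing protein for mischarged alanine tRNA, from 43.6 ± 2.06 to 13.7 ± 0.968 (-1.60, SE 0.064, adjusted p = 8.74e-12). SEPSECS, which makes selenocysteine on its tRNA, was higher in CS1 (0.35, SE 0.081, adjusted p = 0.00203) and shFTO (0.69, SE 0.087, adjusted p = 8.82e-06) and lower in CS2 (-1.22, SE 0.081, adjusted p = 2.43e-09). XPOT, the nuclear exporter of tRNA, rose in shFTO from 162 ± 4.74 to 251 ± 27.3 TPM (0.63, SE 0.072, adjusted p = 3.32e-06). GATB, a subunit of the mitochondrial amidotransferase that makes glutaminyl-tRNA, fell in shFTO (-0.78, SE 0.082, adjusted p = 1.57e-06). All 4 genes of the elongation factor 1 complex, which takes charged tRNA to the ribosome, fell in CS2, led by EEF1A1 from 3513 ± 101 to 933 ± 21.8 TPM (-1.91, SE 0.037, adjusted p = 1.12e-14); in CS1 none rose and 1 fell, and in shFTO 1 rose and 1 fell.

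Of 18 genes of the amino acid limitation response, 14 rose and 1 fell in CS1, 10 rose and 4 fell in CS2, and 3 rose and 11 fell in shFTO, with medians of 0.36, 0.52 and -0.17. Of all genes tested, 37.5% rose and 14.3% fell in CS1, 49.5% and 24.6% in CS2, and 31.9% and 24.5% in shFTO. The CS2 counts of this list were thus near the shares of all genes. With median-of-ratios scaling 11 rose and 2 fell in CS1, 10 and 7 in CS2, and 3 and 12 in shFTO. TRIB3, a pseudokinase induced through ATF4, went from 90.6 ± 4.97 TPM in DMSO to 247 ± 9.58 in CS1 (1.44, SE 0.053, adjusted p = 5.2e-11) and 268 ± 22.5 in CS2 (1.55, SE 0.053, adjusted p = 1.6e-12). DDIT3, the stress transcription factor CHOP, went from 27.1 ± 1.05 to 85.7 ± 5.73 TPM in CS1 (1.62, SE 0.087, adjusted p = 1.42e-09) and 184 ± 22.7 in CS2 (2.71, SE 0.087, adjusted p = 9.1e-13). DDIT3 shares 355 exonic bases with MARS on the opposite strand, so the MARS values carry the same caution on strand. So do, among others, those of WARS (385 bases shared with AL157871.4, 287 with WDR25), YARS (396 with S100PBP) and AIMP1 (387 with TBCK). EARS2 (370 with UBFD1) and CARS2 (326 with ING1) belong here too. SARS2 shares 1492 of its 3231 exonic bases with AC011455.2 on the same strand. Neither AC011455.2 nor AL157871.4 has an entry in the deposited values, while WDR25, S100PBP, TBCK, UBFD1 and ING1 do. PSAT1, an enzyme of serine synthesis, and SLC7A5, a transporter of large neutral amino acids, fell in shFTO (-1.24, SE 0.081, adjusted p = 1.23e-08; -0.95, SE 0.10, adjusted p = 2.16e-06). The ATF4 mRNA itself, named after its values were seen, was lower in CS1 (-0.12, SE 0.046, adjusted p = 0.0432), CS2 (-0.78, SE 0.046, adjusted p = 6.46e-10) and shFTO (-0.33, SE 0.049, adjusted p = 4.79e-05). In CS2, TRIB3 and DDIT3 were higher while 8 of the 12 synthetase genes listed as ATF4 targets were lower. The response list itself was mixed in CS2, with 10 genes higher and 4 lower. Of the same list, ASNS went from 37.7 ± 1.56 TPM in DMSO to 26.4 ± 2.52 in CS2. SLC7A11 went from 19.2 ± 0.935 to 9.87 ± 2.38 TPM. Both were named after their values were seen. How the lists relate was not tested.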

How the data were processed

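Poly(A)-enriched RNA of 16 NOMO-1 libraries in 5 groups was analysed from 1 table of TPM deposited by the authors, with 1 column per library. The tool RSEM (1.2.31) and the build GRCh38 are named per the submitters' processing notes. The aligner, annotation and strand setting were not given in the sources used here. TPM as the unit was read off the deposited values, since each column sums to 1000000 within rounding. TPM hold no counts, so the depth behind each value is unknown and no counting interval is given. All columns belonged to a sample by name.

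Values were taken as log2(TPM + 1) and the 14951 genes reaching 1 TPM in 3 libraries or more were tested with limma 3.58.1 in R 4.3.3: 1 mean per group over all 16 libraries, empirical Bayes moderation with a mean-variance trend, 6 contrasts, two-sided tests and Benjamini-Hochberg adjustment over all genes at 0.05. Fold changes are on this scale and understate those of low genes. The steps were tested on simulated data. The submitters state biological replicates without naming separate cultures, so p-values measure the spread between these samples. Gene positions come from GENCODE 29, in which all 39 members were found, and promoters from RefSeq (GRCh38.p14).

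The members and lists were chosen with earlier results of these data known. Named members are the 5 with the smallest adjusted p in each direction for each inhibitor and the hairpin, the 3 smallest for the other contrasts, and all scaffold genes; from each other list, up to 3 of the genes with the smallest adjusted p in a comparison are named. The alternatives were another pseudocount (0.1), no filter on low values, median-of-ratios scaling, quantile normalization, only the groups compared, a replicate block, no mean-variance trend and leaving out each library. The labels do not say that equal replicate numbers mark a shared day, so the numbers were not taken to pair the samples. Deviations of same-numbered libraries correlated above 0.1 in 3 of 12 pairs (-0.0093 to 0.22), which does not decide whether they are paired.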

Additional observations from a re-analysis of the deposited data

Results flagged for a closer look

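Among the DMSO libraries, the only group large enough to be checked in this way, 1 library stood apart from the other 3 in 2 of 39 members, where chance gives about 1 in 20. FARSA, a subunit of the cytosolic phenylalanine enzyme, measured 197.42 TPM in DMSO replicate 4, and the next highest library measured 191.5 TPM. IARS2, the mitochondrial isoleucine enzyme, measured 149.18 TPM in DMSO replicate 3, and the next lowest library measured 157.01 TPM. The gap was 0.839 of the group's range for FARSA and 0.863 for IARS2.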

How the results depend on the processing

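Of the counts of members called, those of CS1 against DMSO and of members called higher after CS2 or the hairpin depended on the scaling. With median-of-ratios scaling, 6 members were higher and 21 lower in CS1 (11 and 10 as deposited), 2 were higher in CS2 (8), 1 was higher in shFTO (2) and 1 was lower in CS1 than in CS2 (4). With quantile normalization, 19 were lower in CS1, 2 higher in CS2, 4 higher in shFTO, 1 lower in CS1 than in CS2, and 5 had a lower response to CS1 than to the hairpin (2). CARS in CS2 turned from 0.17 to -0.067 and -0.064, AIMP1 in CS2 from 0.19 to -0.037 and -0.046, and CARS2 in shFTO from 0.074 to -0.028 (median-of-ratios scaling only). Without the mean-variance trend 1 member was higher in shFTO.

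Leaving out each library in turn gave 1 to 3 members higher in shFTO, 10 to 12 higher and 8 to 11 lower in CS1, 8 to 9 higher and 24 to 26 lower in CS2, and 29 to 30 lower in shFTO. With a replicate block, a fit that takes equal numbers as pairs, 11 members were higher and 9 lower in CS1, 8 and 24 in CS2, and 2 and 30 in shFTO. The block removed the calls of YARS2 in CS1 (adjusted p = 0.0768), TARS in CS2 (0.055), CARS2 in shFTO (0.061) and NARS2 in the difference between CS1 and the hairpin (0.0786), and it added AARS in shFTO (0.00385) and AARS in CS1 against CS2 (0.0157). In no comparison of groups did every library deviate most like the same-numbered library of the other group. Of 6 libraries checked in each, 4 did in CS1 against DMSO and 3 in CS2 against DMSO. In shFTO against shNS and in CS1 against CS2, 5 of 6 did, with same-number correlations of 0.085 to 0.22 in CS1 against CS2. Whether equal numbers mark a shared batch was not tested. The cause of these changes was not tested. The unknown depth leaves the counting error of the low members, EEF1E1 and FARS2, without a value.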
